A study of Mus musculus with 12 samples.

Results

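The genes described here are 10 targets and components of the ATF4 stress response and of serine synthesis: Atf4, Atf5, Ddit3, Ddit4, Trib3, Chac1, Asns, Phgdh, Psat1 and Psph. They were chosen by name, as every probe set with a single gene symbol equal to one of these names, and the choice was made with earlier results of these data known. All 10 were measured, on 11 probe sets, among 17103 genes in all. The study set mouse induced neural stem cells (iNSC1 and iNSC2), neural stem cells (NSC) and mouse embryonic fibroblasts (MEF) side by side on 12 Affymetrix Mouse Gene 1.0 ST arrays, 3 arrays for each group. The titles mark the NSC and MEF arrays as wild type, and the difference between iNSC1 and iNSC2 is not explained there. Per the labels, MEF grew in DMEM that held 10% FBS. The medium of the iNSC and NSC cultures instead held heparin at 2 µg/ml and the growth factors FGF-2 and EGF at 20 ng/ml each, so that cell type and medium cannot be told apart in any comparison with MEF. Every culture was rinsed with serum-free medium just ahead of collection. Nothing says that the arrays of a group came from separate cultures, so p-values measure only the spread between these arrays.

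Cells that lack amino acids, or whose endoplasmic reticulum is loaded with unfolded protein, phosphorylate the translation initiation factor eIF2 alpha. Most translation then slows, while the mRNA of the transcription factor ATF4 is translated more, and ATF4 switches on genes for amino acid supply together with genes that stop growth or promote cell death. Serine synthesis, which branches off glycolysis and feeds glycine and folate metabolism, is among the pathways ATF4 is known to control. The arrays measured mRNA, so the amount of ATF4 protein and its activity were not observed.

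The labels were set against cell type markers first. The arrays of a group correlated with each other at 0.987 to 0.994 over all genes. Col1a1, a fibroblast collagen, averaged 5.80, 5.75 and 5.60 on the iNSC1, iNSC2 and NSC arrays and 12.25 on the MEF arrays (log2 units, as are all levels given here). All 10 fibroblast markers examined were called lower in iNSC and in NSC than in MEF. By the calling rule given below, 8.21% of all genes were called higher and 10.9% lower in iNSC minus MEF. The shares were 8.72% and 9.96% in NSC minus MEF, and 2.91% and 3.65% in iNSC minus NSC. Sox2, a defining neural stem cell factor, averaged 4.56, 4.42 and 4.58 on the iNSC1, iNSC2 and NSC arrays, against 4.50 on the MEF arrays, and Pou5f1, a pluripotency factor, averaged 12.98, 13.01 and 12.89 against 3.54. Of 9 measured pluripotency markers, 6 were called higher in iNSC minus MEF and 4 in NSC minus MEF, with 0 lower in either, and 2 were called higher and 1 lower in iNSC minus NSC. The last were Gdf3 (3.93 ± 0.11), Utf1 (3.19 ± 0.13) and Nr0b1 (-4.44 ± 0.12), named after their values were seen, and Utf1 also differed by 2.38 in iNSC1 minus iNSC2. The mean of the 9 ran from 6.84 to 6.99 on the iNSC1 arrays, 6.58 to 6.70 on the iNSC2 arrays and 6.52 to 6.69 on the NSC arrays, against 4.01 to 4.11 on the MEF arrays. The part of these marker differences in the results of iNSC against NSC was not tested. The mean of 12 neural stem cell markers ran from 4.83 to 4.91 on the iNSC1 arrays, 4.92 to 4.94 on the iNSC2 arrays and 4.96 to 5.07 on the NSC arrays, against 4.59 to 4.72 on the MEF arrays, with 0 called higher and 1 lower in iNSC minus MEF and 3 higher and 0 lower in NSC minus MEF. The 3 called higher in NSC were Pax6 (1.16 ± 0.135), Olig2 (1.11 ± 0.13) and Sox1 (1.02 ± 0.087), and the 1 called lower in iNSC was Notch1 (-1.11 ± 0.084). Olig2, Sox1 and Notch1 were named after their values were seen. Nes, another of the 12 markers, averaged 5.45, 6.01 and 4.79 on the iNSC1, iNSC2 and NSC arrays, against 5.15 on the MEF arrays. The Nes difference was -0.36 ± 0.18 in NSC minus MEF, 0.58 ± 0.15 in iNSC minus MEF and 0.94 ± 0.15 in iNSC minus NSC. Nes was called in none of these comparisons. In iNSC minus MEF, Sox1 differed by 0.89 ± 0.075 and Pax6 by 0.61 ± 0.12, both under the 2-fold minimum. Sox2 did not set the iNSC and NSC arrays apart from MEF, at levels near the array medians of 4.31 to 4.44. Levels of Pax6 and Olig2 were low too, at 4.93 and 4.59 on the NSC arrays and 3.77 and 3.48 on the MEF arrays. The markers were thus mixed, and the names iNSC and NSC stand below for the libraries so labelled. The MEF arrays also held macrophage transcripts: the mean of 9 macrophage markers ran from 3.77 to 3.83 on the iNSC1 arrays, 3.62 to 3.68 on the iNSC2 arrays and 3.71 to 3.76 on the NSC arrays, against 6.52 to 6.85 on the MEF arrays. Of those 9 markers, 7 were called lower in both iNSC and NSC than in MEF. Lyz2, a macrophage lysozyme, averaged 8.89 ± 0.76 on the MEF arrays (SD, n = 3). The part of these cells in the differences from MEF given below was not tested. In bulk samples, fewer cells of a type and less RNA per cell cannot be told apart.

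A gene was called when limma's adjusted p (Benjamini-Hochberg over the 17103 genes) was under 0.05 and the difference at least 2-fold. In iNSC minus MEF, 4 of the 10 genes (Atf5, Ddit3, Ddit4 and Trib3) were called, all lower, where 10.9% of all genes were called lower and 8.21% higher. In NSC minus MEF, 4 of the 10 (Atf5, Ddit3, Trib3 and Chac1) were called, all lower, where 9.96% of all genes were called lower and 8.72% higher. In iNSC minus NSC, Trib3 and Chac1 were called higher and Ddit4 lower, where 2.91% of all genes were called higher and 3.65% lower. In iNSC1 minus iNSC2, limma called 0 of the 10 genes, 1 of them at an unadjusted p under 0.05, where 0.152% of all genes were called in either direction. Without the fold minimum, 6 of the 10 genes had an adjusted p under 0.05 in iNSC minus MEF (55.9% of all genes), 6 in NSC minus MEF (51.9%), 5 in iNSC minus NSC (35.8%) and 0 in iNSC1 minus iNSC2 (2.3%). Taken over all comparisons, the calls fell on 5 of the 6 stress genes and on none of the 4 genes of asparagine and serine synthesis. The share of all genes called in any of the comparisons was not counted, so this split is a description only. The median difference of the 10 genes was -0.15 in iNSC minus MEF, -0.29 in NSC minus MEF and 0.09 in iNSC minus NSC, beside medians over all genes of 0.06, 0.05 and 0.01. These comparisons share arrays, so their values are set side by side and not counted as repeats of each other.

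**Figure D1:**
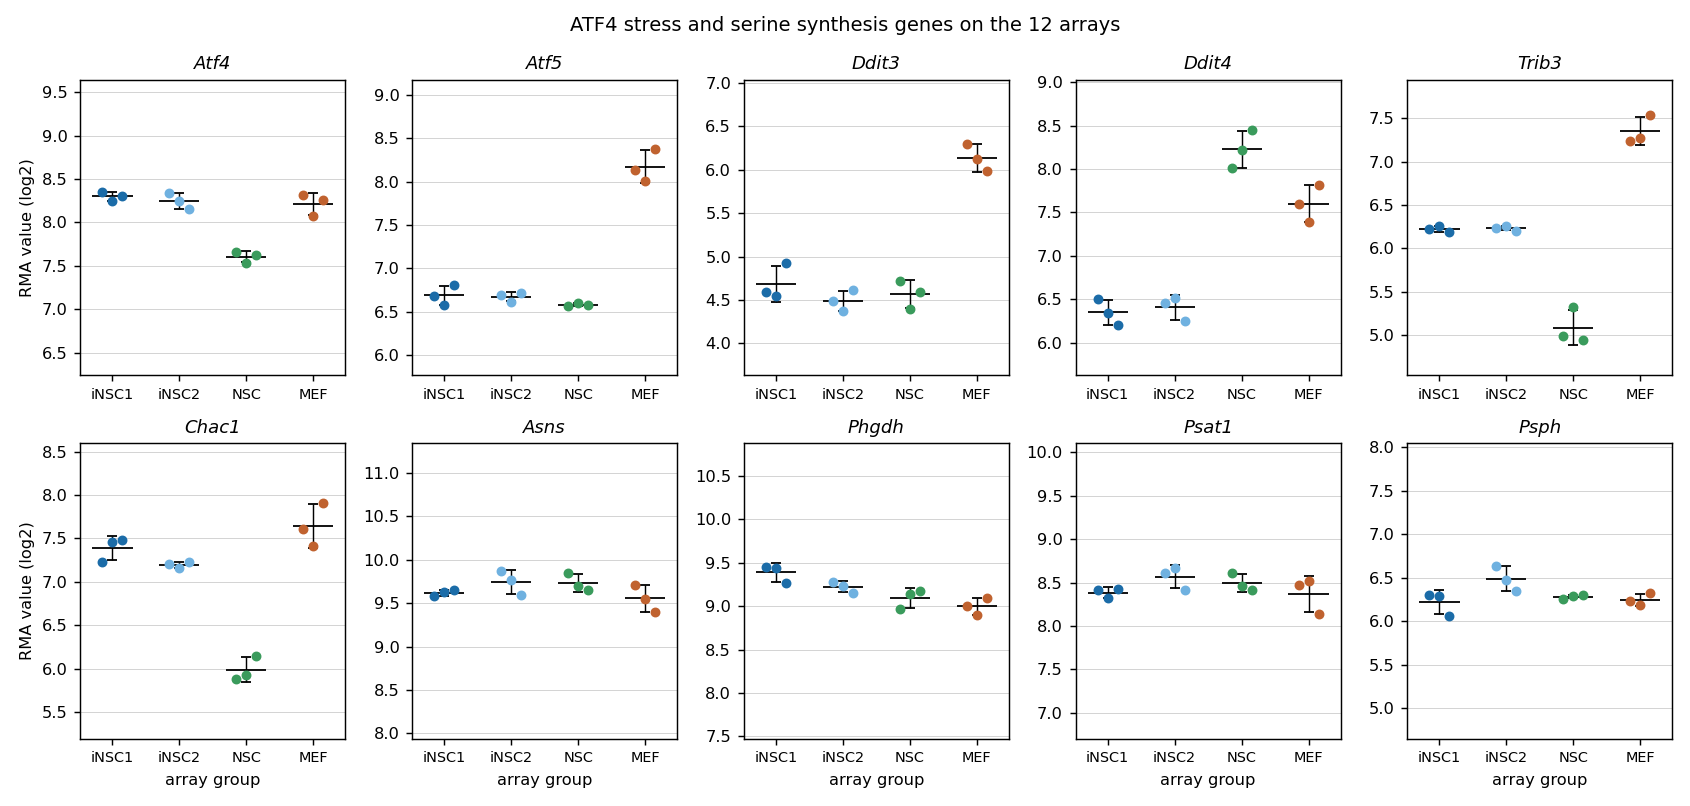
Log2 level of each of the 10 genes on each array, with 1 point per array and a bar at the mean of each group of 3 arrays. Trib3 and Chac1 lie lowest on the NSC arrays and Ddit4 lies highest there, while Asns, Phgdh, Psat1 and Psph stay within a narrow band on all 12 arrays.

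Trib3 encodes a pseudokinase that is induced by ATF4 and CHOP and can bind AKT. It read 6.22, 6.25 and 6.19 on the iNSC1 arrays, 6.24, 6.26 and 6.21 on the iNSC2 arrays and 4.995, 5.33 and 4.95 on the NSC arrays, against 7.24, 7.27 and 7.54 on the MEF arrays. The NSC arrays were lowest, the MEF arrays highest and both iNSC sets lay between, with no overlap of these 3 levels. Trib3 was 2.20-fold higher in iNSC than in NSC (log2 difference 1.14 ± 0.098 SE, adjusted p = 3.96e-08). In NSC it was lower than in MEF by a log2 difference of -2.26 ± 0.11 (adjusted p = 1.12e-11), and in iNSC by -1.12 ± 0.098 (adjusted p = 1.58e-08). Of all genes, 4.24% had a larger absolute difference between NSC and MEF. In the authors' table, whose genome build is not stated, the probe sets of Trib3 and Chac1 lie on chromosome 2, at 152163158 to 152169796 (minus strand) and 119176992 to 119180117 (plus strand), and that of Ddit4 on chromosome 10, at 59412423 to 59414518 (minus strand).

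Chac1 encodes an enzyme that degrades glutathione and is a known target of the ATF4 pathway. It read 7.23, 7.46 and 7.49 on the iNSC1 arrays, 7.20, 7.16 and 7.23 on the iNSC2 arrays and 5.88, 5.93 and 6.15 on the NSC arrays, against 7.61, 7.41 and 7.91 on the MEF arrays. The NSC arrays lay below all 9 others, and the iNSC1 and MEF arrays overlapped. Chac1 was 2.48-fold higher in iNSC than in NSC (log2 difference 1.31 ± 0.10, adjusted p = 1.31e-08). The difference from NSC was 1.41 for iNSC1 and 1.21 for iNSC2. In NSC, Chac1 was lower than in MEF by a log2 difference of -1.66 ± 0.12 (adjusted p = 1.68e-09). The difference of iNSC from MEF was -0.35 ± 0.10 (adjusted p = 0.00805), which is under the 2-fold minimum.

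Ddit4, also called REDD1, encodes an inhibitor of the growth kinase complex mTORC1. It read 6.50, 6.35 and 6.21 on the iNSC1 arrays, 6.46, 6.51 and 6.25 on the iNSC2 arrays and 8.02, 8.22 and 8.45 on the NSC arrays, against 7.60, 7.40 and 7.82 on the MEF arrays. The NSC arrays had the highest mean, and every iNSC array lay below every NSC and MEF array. Ddit4 in iNSC was 0.278 times its level in NSC (log2 difference -1.85 ± 0.11, adjusted p = 2.93e-10), and 2.04% of all genes had a larger absolute difference in this comparison. In iNSC it was also lower than in MEF (log2 difference -1.22 ± 0.11, adjusted p = 2.52e-08). The difference of NSC from MEF was 0.62 ± 0.13 (adjusted p = 0.00044), under the 2-fold minimum. Ddit4 was thus called in iNSC against both NSC and MEF, whereas Chac1 was called in NSC against both iNSC and MEF and Trib3 in all 3 comparisons.

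Atf4, the transcription factor after which the pathway is named, read 8.35, 8.25 and 8.30 on the iNSC1 arrays, 8.33, 8.25 and 8.15 on the iNSC2 arrays and 7.66, 7.53 and 7.63 on the NSC arrays, against 8.31, 8.07 and 8.26 on the MEF arrays. The NSC arrays lay below all others, and the iNSC and MEF arrays overlapped. The difference was 0.67 ± 0.073 in iNSC minus NSC (adjusted p = 8.87e-07) and -0.61 ± 0.084 in NSC minus MEF (adjusted p = 7.2e-06), both under the 2-fold minimum, so Atf4 was not called. In iNSC minus MEF the difference was 0.06, with a 95% confidence interval of -0.096 to 0.213. Across the 12 arrays the Pearson correlation of Atf4 was 0.92 with Chac1 and 0.73 with Trib3, but -0.77 with Ddit4. It was 0.31 with Atf5, 0.26 with Ddit3, -0.21 with Asns, 0.40 with Phgdh, -0.16 with Psat1 and 0.16 with Psph. These describe 12 arrays in 4 groups that share their cell type and processing.

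Atf5 and Ddit3 encode a related basic leucine zipper factor and CHOP, a factor linked to cell death under prolonged stress. Atf5 read 6.68, 6.58 and 6.80 on the iNSC1 arrays, 6.70, 6.61 and 6.72 on the iNSC2 arrays and 6.57, 6.60 and 6.58 on the NSC arrays, against 8.13, 8.01 and 8.38 on the MEF arrays. Ddit3 read 4.59, 4.54 and 4.93 on the iNSC1 arrays, 4.48, 4.38 and 4.61 on the iNSC2 arrays and 4.72, 4.40 and 4.60 on the NSC arrays, against 6.30, 6.12 and 5.98 on the MEF arrays. Both genes thus stood apart on the MEF arrays alone. Atf5 was lower than in MEF by -1.49 ± 0.087 in iNSC (adjusted p = 6.12e-11) and by -1.59 ± 0.10 in NSC (adjusted p = 2.67e-10). Ddit3 was lower than in MEF by -1.54 ± 0.12 in iNSC (adjusted p = 1.95e-09) and by -1.56 ± 0.13 in NSC (adjusted p = 1.61e-08). Between iNSC and NSC, the 95% interval of the difference was -0.084 to 0.282 for Atf5 and -0.225 to 0.262 for Ddit3. The Ddit3 readings on these arrays, 4.38 to 4.93, were close to the array medians of 4.31 to 4.44. At such low levels a difference between iNSC and NSC could be missed. The 2 genes had the closest profiles of any pair among the 10 (r = 0.97 over the 12 arrays).

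Asns, which makes asparagine, read 9.58, 9.62 and 9.65 on the iNSC1 arrays, 9.88, 9.77 and 9.60 on the iNSC2 arrays and 9.85, 9.69 and 9.65 on the NSC arrays, against 9.71, 9.55 and 9.40 on the MEF arrays. The ranges of iNSC, NSC and MEF overlapped. The 95% interval of the difference was -0.035 to 0.286 in iNSC minus MEF, -0.0097 to 0.36 in NSC minus MEF and -0.21 to 0.111 in iNSC minus NSC, so a difference of 2-fold lay outside each of these intervals. Asns was among the genes at the upper end of these arrays, with 96.9% of probe sets at a lower mean.

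Phgdh catalyses the first step of serine synthesis from a glycolytic intermediate. It read 9.46, 9.44 and 9.27 on the iNSC1 arrays, 9.28, 9.24 and 9.16 on the iNSC2 arrays and 8.97, 9.15 and 9.17 on the NSC arrays, against 9.00, 8.89 and 9.10 on the MEF arrays. Both iNSC sets had higher means than NSC and MEF, and every iNSC array lay above every MEF array, with a difference of 0.31 ± 0.071 (adjusted p = 0.00108). Relative to NSC, the difference was 0.21 ± 0.071 (limma adjusted p = 0.0256, and 0.076 in the authors' table). By set, the difference from NSC was 0.29 for iNSC1 (adjusted p = 0.00922) and 0.13 for iNSC2 (adjusted p = 0.275). All of these differences are far under the 2-fold minimum, and none was called. Phgdh was the only one of the 10 genes with several probe sets. The probe set used lies on chromosome 7, at 144002592 to 144003583, and the other on chromosome 3, at 98117093 to 98143892 (the authors' coordinates, with no genome build stated in the sources used). The chromosome 3 probe set gave 0.40 ± 0.080 in iNSC minus MEF (adjusted p = 0.000328) and 0.25 ± 0.080 in iNSC minus NSC (adjusted p = 0.0189). Apart from these values, the Phgdh levels, correlations and most similar genes given here come from the chromosome 7 probe set, kept for its higher mean. It covers a far shorter stretch than the chromosome 3 probe set, and which of them lies at the Phgdh gene itself was not checked. Near-identical copies of a gene can share probes, and whether these probe sets do was not tested.

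Psat1 and Psph carry out the following steps of serine synthesis. Psat1 read 8.41, 8.32 and 8.43 on the iNSC1 arrays, 8.61, 8.67 and 8.42 on the iNSC2 arrays and 8.61, 8.46 and 8.42 on the NSC arrays, against 8.47, 8.51 and 8.14 on the MEF arrays. Psph read 6.31, 6.30 and 6.06 on the iNSC1 arrays, 6.64, 6.48 and 6.35 on the iNSC2 arrays and 6.26, 6.29 and 6.30 on the NSC arrays, against 6.24, 6.18 and 6.32 on the MEF arrays. For both genes the iNSC2 arrays had the highest mean, and the ranges of iNSC, NSC and MEF overlapped, although the 3 iNSC2 arrays lay above all NSC and MEF arrays for Psph. The 95% interval in iNSC minus MEF was -0.082 to 0.287 for Psat1 and -0.082 to 0.294 for Psph. Over Asns, Phgdh (chromosome 7 probe set), Psat1 and Psph together, the 4 comparisons gave differences from -0.27 to 0.31. The outermost confidence bounds were -0.49 and 0.46. The chromosome 3 probe set of Phgdh lay outside this range of differences in iNSC minus MEF, at 0.40 ± 0.080. Over the 12 arrays the correlation was 0.85 between Asns and Psat1, and the other 5 pairs of these genes ran from -0.18 (Phgdh and Psat1) to 0.42 (Asns and Psph).

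**Figure D2:**
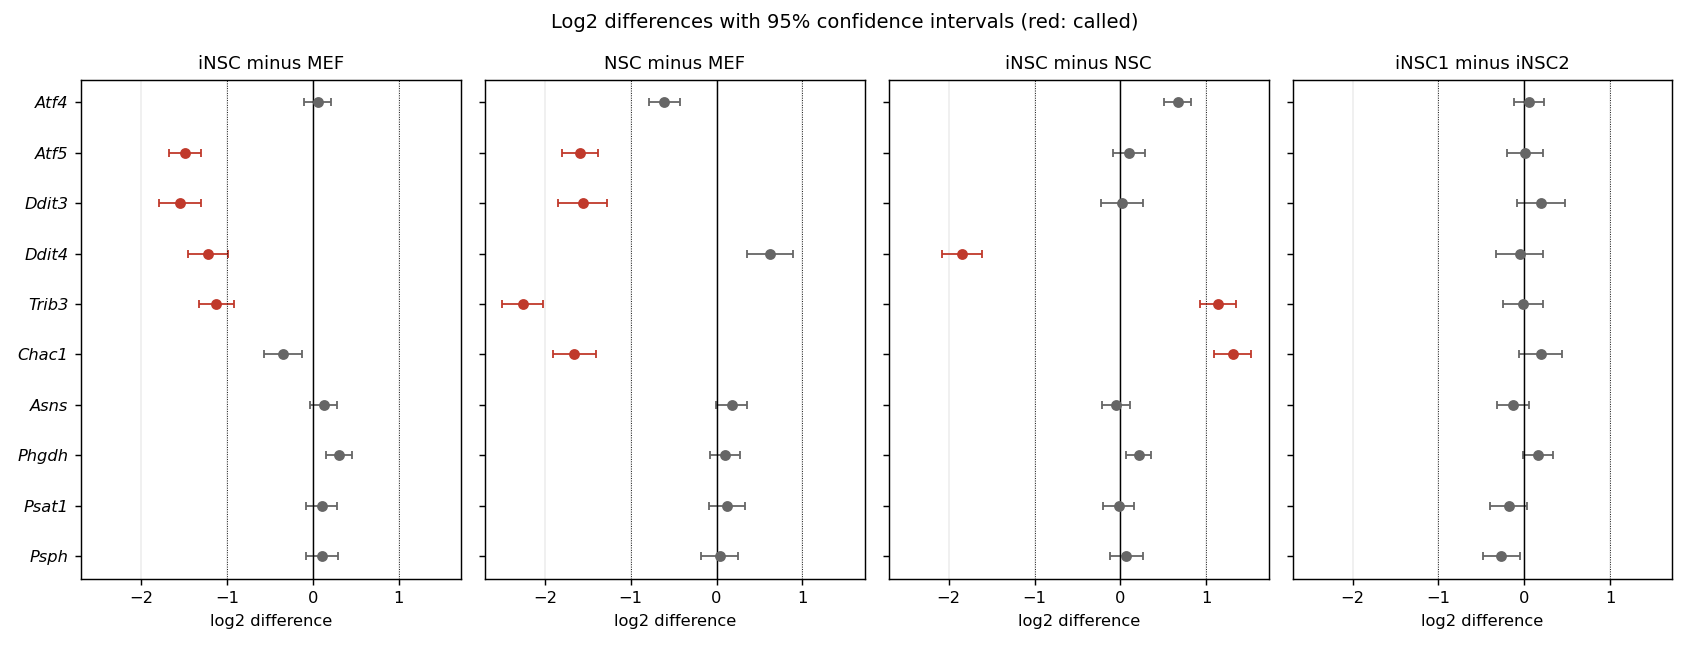
Log2 difference of each of the 10 genes in iNSC minus MEF, NSC minus MEF, iNSC minus NSC and iNSC1 minus iNSC2, with 95% confidence intervals from limma. Trib3, Chac1 and Ddit4 lie beyond 2-fold between iNSC and NSC, with differences of 1.14, 1.31 and -1.85, and the genes of asparagine and serine synthesis lie near 0.

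Between the 2 iNSC sets, the differences of the 10 genes ran from -0.27 to 0.20, and the lowest adjusted p was 0.271. That value belonged to Psph, at -0.27 in iNSC1 minus iNSC2 (95% interval -0.486 to -0.051, unadjusted p = 0.0185). Trib3 differed by -0.01 and Ddit4 by -0.05 between the sets. The iNSC1 and iNSC2 differences from NSC were 1.13 and 1.15 for Trib3 and -1.87 and -1.82 for Ddit4.

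Promoter windows were examined for letters that ATF4 complexes are known to bind. RefSeq windows (GRCm38.p6) from 250 bases before to 50 bases after the start were given for all 10 genes, in 12 windows. The C/EBP-ATF response element was searched on both strands as TGATGNAA and was found in 3 of the 12 windows, those of Chac1, Asns and Trib3. It is held by 3.97% of the 32851 windows of all genes. A variant, TGACGCAA, was found in 1 of the 12, that of Chac1, and in 0.49% of all windows. The cyclic AMP response element, TGACGTCA, was found in 0 of the 12 and in 1.79% of all windows. The stretches with matches are shown because Chac1 and Trib3 were called between iNSC and NSC and Asns was not. They are written 5′ to 3′ on the gene's strand, with the matched letters in capitals.
Chac1 (chr2:119350992-119351061, plus strand): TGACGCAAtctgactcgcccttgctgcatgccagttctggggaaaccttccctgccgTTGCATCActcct
Asns (chr6:7693210-7693269, minus strand): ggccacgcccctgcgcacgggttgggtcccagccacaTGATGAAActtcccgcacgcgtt
Trib3 (chr2:152344029-152344056, minus strand): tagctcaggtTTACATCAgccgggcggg
In Chac1 and Trib3 the response element is read on the opposite strand. A match is a description of these letters, and the windows cover only the region next to the start.

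Related genes were taken from lists chosen by function. Beside each list count stand the shares of all genes, which were 8.21% called higher and 10.9% lower in iNSC minus MEF. The shares were 8.72% and 9.96% in NSC minus MEF, and 2.91% and 3.65% in iNSC minus NSC. No list was tested against these shares. Of 17 sensors and regulators of the pathway, all measured, 2 were called higher and 5 lower in iNSC minus MEF, 2 higher and 4 lower in NSC minus MEF, and 1 higher and 3 lower in iNSC minus NSC. Cebpb, a partner of ATF4, was lower than in MEF by -2.03 ± 0.13 in iNSC and -2.21 ± 0.15 in NSC, and Nupr1, a stress-induced chromatin protein, by -1.63 ± 0.080 and -2.24 ± 0.092. Impact, an inhibitor of the eIF2 alpha kinase GCN2, was lower by -2.02 ± 0.16 and -1.71 ± 0.19. Sesn2, which restrains mTORC1 when leucine is low, read 6.33 to 6.73 on the iNSC arrays, 8.34 to 8.46 on the NSC arrays and 8.42 to 8.56 on the MEF arrays. It was lower in iNSC than in NSC by -1.89 ± 0.069. Ddit4, another brake on mTORC1, differed by -1.85 in the same comparison.

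Among 18 further stress targets, 2 were called higher and 5 lower in iNSC minus MEF, 2 higher and 4 lower in NSC minus MEF, and 1 higher and 2 lower in iNSC minus NSC. Ddit4l, a relative of Ddit4, was lower in iNSC than in NSC by -1.77 ± 0.10 and lower than in MEF by -3.26 ± 0.10. Trib2, a relative of Trib3, was lower than in MEF by -2.48 ± 0.11 in iNSC and -2.61 ± 0.13 in NSC, with a difference of 0.13 ± 0.11 between iNSC and NSC. Ndrg1, a stress and hypoxia gene, was higher than in MEF by 2.82 ± 0.090 in iNSC and by 1.99 ± 0.10 in NSC. Tnfrsf10b, a death receptor, was lower in iNSC than in MEF by -1.85 ± 0.091.

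Enzymes that use serine were described next to those that make it. Of 14 measured enzymes of serine, glycine and folate metabolism, 4 were called higher and 1 lower in iNSC minus MEF, 5 higher and 0 lower in NSC minus MEF, and 0 higher and 1 lower in iNSC minus NSC. The last count was 2 without iNSC2 replicate 3, NSC replicate 1 or NSC replicate 3. Shmt2 and Shmt1, which turn serine into glycine in mitochondria and cytosol, were higher than in MEF by 1.95 ± 0.076 and 1.98 ± 0.10 in iNSC and by 1.55 ± 0.087 and 2.155 ± 0.12 in NSC. Gldc, which breaks glycine down, was lower in iNSC than in NSC by -1.18 ± 0.11. Of 14 enzymes of other amino acids, 3 were called higher in iNSC minus MEF, 5 in NSC minus MEF and 0 in iNSC minus NSC, with none lower in any of them. Glul, which makes glutamine, was higher than in MEF by 1.95 ± 0.070 in iNSC and 2.28 ± 0.081 in NSC.

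Of 12 amino acid transporters linked to ATF4, 5 were called higher and 0 lower in both comparisons with MEF, and 1 higher and 2 lower in iNSC minus NSC. Of all genes, 8.21% were called higher in iNSC minus MEF and 8.72% in NSC minus MEF. In iNSC minus NSC, 2.91% were called higher and 3.65% lower. Slc7a3, a carrier of arginine and lysine, was lower in iNSC than in NSC by -2.25 ± 0.094 and higher than in MEF by 2.19 ± 0.094 in iNSC and 4.45 ± 0.11 in NSC. Slc7a11, the cystine carrier that feeds glutathione synthesis, was lower in iNSC than in NSC by -1.45 ± 0.15. Of 19 measured cytosolic aminoacyl-tRNA synthetases, 4 were called higher and 0 lower in both comparisons with MEF and 0 in iNSC minus NSC (1 without NSC replicate 3). Vars, which charges valine, was higher than in MEF by 1.98 ± 0.070 in iNSC and 1.80 ± 0.081 in NSC. Of 21 genes of the unfolded protein response, 5 were called lower in iNSC minus MEF (3 after a further quantile normalisation), where 10.9% of all genes were called lower, and the other 16 were not called. In NSC minus MEF, 4 were called lower (2 without MEF replicate 1), where the share of all genes was 9.96%, and 0 were called in iNSC minus NSC. Dnajb9, an endoplasmic reticulum co-chaperone, was lower than in MEF by -2.84 ± 0.13 in iNSC and -2.69 ± 0.15 in NSC. In iNSC minus MEF the median difference was -0.31 for the sensors and regulators, -0.24 for the further stress targets, 0.32 for the serine, glycine and folate enzymes and 0.49 for the other amino acid enzymes, beside 0.06 over all genes. In iNSC1 minus iNSC2, 1 gene of all these lists was called, the transporter Slc43a1 (1.15 ± 0.13, adjusted p = 7.11e-05).

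**Figure D3:**
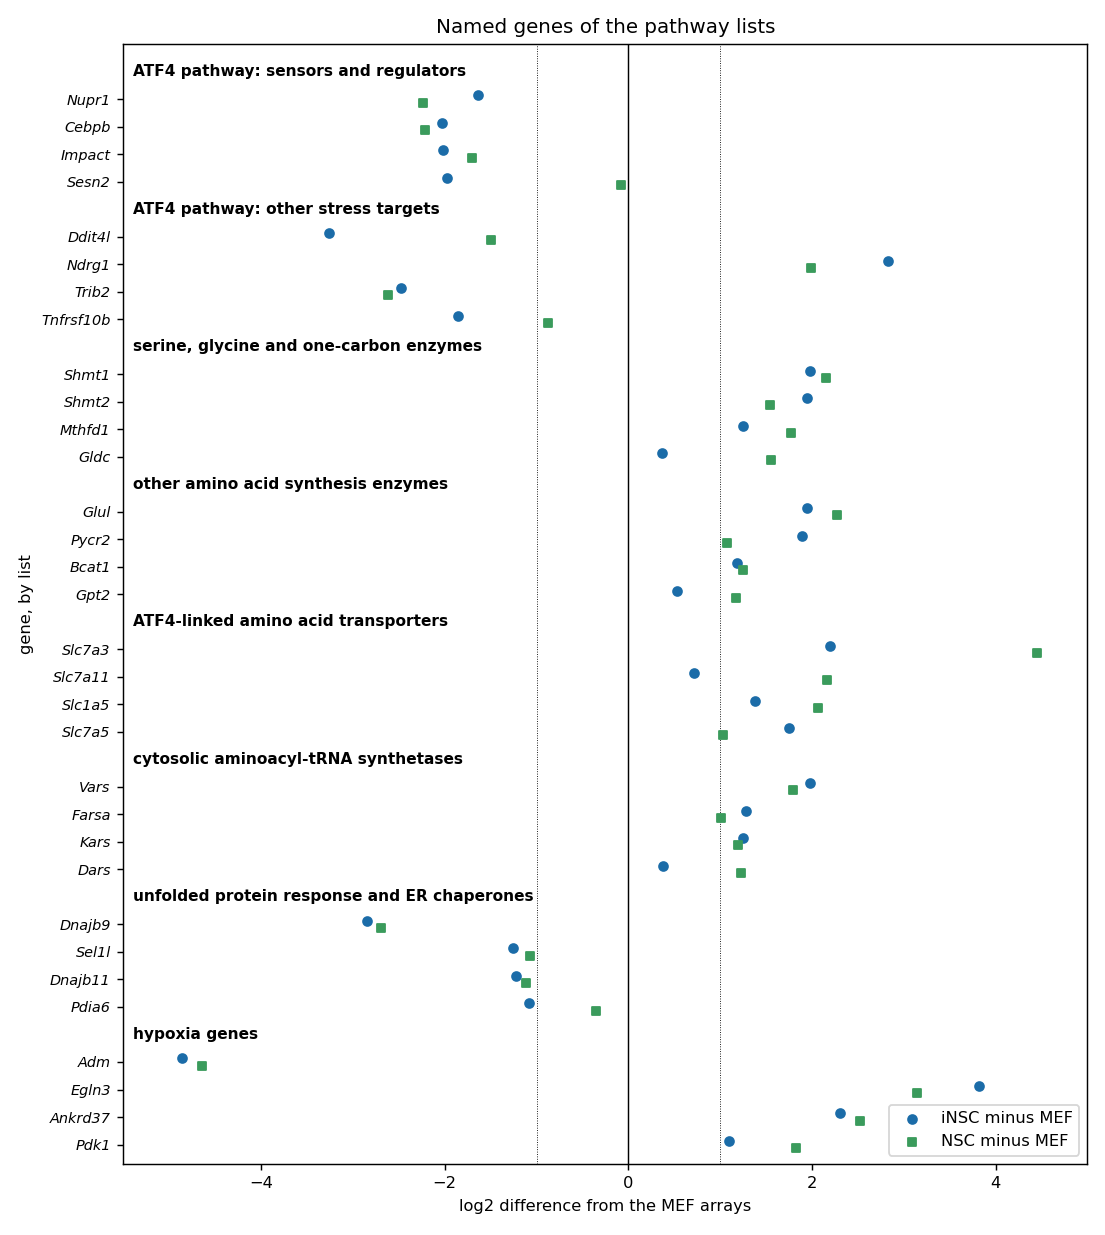
Log2 differences from MEF of up to 4 genes per list, those with the largest change among those called. Each gene has 1 point for iNSC minus MEF and 1 for NSC minus MEF. Over the whole lists, including genes not shown, the median in iNSC minus MEF was 0.77 for transporters and 0.34 for tRNA synthetases. It was -0.75 for the unfolded protein response genes.

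Genes with the profile most like a member's were sought among 4537 genes whose 4 group means spanned at least 1 log2 unit. For Trib3 these were Myh10, a non-muscle myosin (r = 0.987), Ddah1, which degrades methylarginines (r = 0.987), and Cpt1a, which carries fatty acids into mitochondria (r = 0.987). Ddah1 averaged 7.46, 7.28 and 5.43 on the iNSC1, iNSC2 and NSC arrays, against 9.42 on the MEF arrays. For Ddit4 they were Ralgds (r = 0.986), Lrrc28 (r = 0.985) and Rbpms2 (r = 0.984), and for Phgdh they were Mrpl37 (r = 0.910), Dok7 (r = 0.908) and Dohh (r = 0.901). The 12 arrays fall into 4 groups that share cell type and processing, so these correlations are given as a description with no p.

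**Figure D4:**
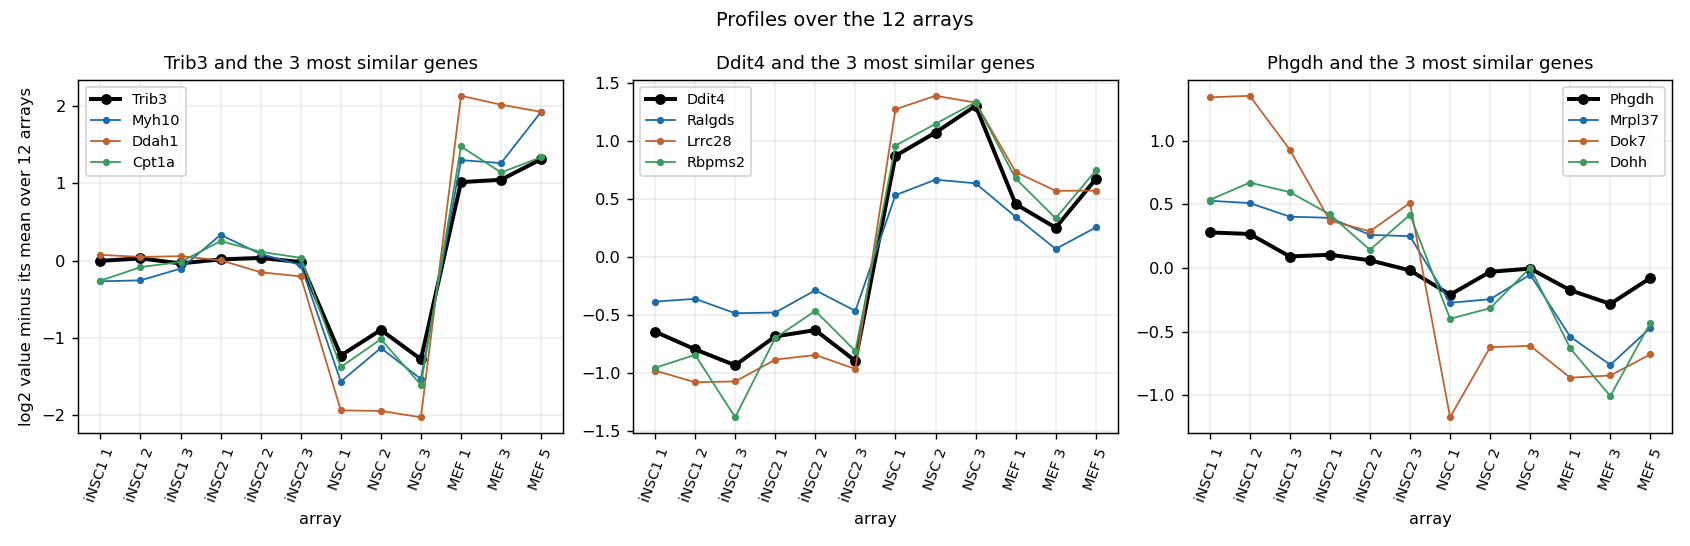
Log2 values of Trib3, Ddit4 and Phgdh on the 12 arrays, each beside the 3 genes with the most similar profile. Each gene is shown minus its own mean over the 12 arrays. The Trib3 genes lie lowest on the NSC arrays and the Ddit4 genes highest there, as their members do.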

How the data were processed

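RNA of 4 groups, 3 samples each, was hybridised to 12 Affymetrix Mouse Gene 1.0 ST arrays. The log2 values are those the authors deposited, made by RMA (background correction, quantile normalisation and summary of probes) with the software Affymetrix Power Tools according to the submitters' processing notes, which give no versions here. Array medians ran from 4.31 to 4.44. Gene symbols came from a second deposited table, which also holds the authors' ratio of group means (log2) and adjusted p-value for each comparison. Of its 12 array columns, 9 could be matched to titles and held the same values as the main table, and 3 were not used, because their names did not match 1 sample. Of its 21774 probe sets, 18403 had 1 symbol, 1452 several and 1919 none, and 17520 were matched to RefSeq by Entrez identifier. The probe set with the highest mean was kept for each gene, which left 17103 genes; arrays carry no detection call, so no filter on low values was applied, and their number limits the precision.

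Group differences came from limma 3.58.1 under R 4.3.3 (lmFit and eBayes with a trend, 1 mean per group, residual degrees of freedom 8, prior 8.7), with Benjamini-Hochberg adjustment over all genes. iNSC is the mean of both iNSC sets. Tables and plots were made with Python 3.11.15, pandas 2.3.3 and matplotlib 3.10.9. Members and lists were chosen with earlier results of these data known. All 10 genes are named, together with up to 4 genes per list with the largest change among those called, up to 2 per list between the iNSC sets, 6 cell type markers, and the 3 most similar genes for each of Trib3, Ddit4 and Phgdh. Alternatives covered the normalisation, the filter, the fold minimum, the choice of probe set, array weights, the replicate number as a block, the authors' deposited values and leaving out each array in turn.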

Additional observations from a re-analysis of the deposited data

How the results depend on the processing

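The counts of called genes among the 10 (4 in iNSC minus MEF, 4 in NSC minus MEF, 3 in iNSC minus NSC and 0 in iNSC1 minus iNSC2) were recomputed under 11 alternatives and with each of the 12 arrays left out. With no minimum fold they were 6, 6, 5 and 0. Without 1 array they ran from 4 to 4, 4 to 4, 3 to 3 and 0 to 0. With the replicate number as a block (without MEF replicate 5) they were 4, 4, 3 and 0. Of 15 same-numbered pairs of arrays, 6 had deviations correlated above 0.1 (-0.18 to 0.28), and other-numbered pairs ran from -0.31 to 0.28. The replicate 1 arrays of iNSC2, NSC and MEF correlated with each other at 0.22 to 0.28. The main fit did not pair arrays by number, and shared handling of same-numbered arrays was not tested. Of 910 single-gene results under an alternative, 904 stayed on the same side of the threshold, 6 passed it once the fold minimum was dropped, and 0 called values reversed; among uncalled genes, the sign changed under an alternative for 2 in iNSC minus MEF, 0 in NSC minus MEF, 3 in iNSC minus NSC and 3 in iNSC1 minus iNSC2. Of 728 counts over the gene lists, 39 moved over 1.5 times, 10 of them with the fold minimum kept. Among these 10, the serine, glycine and folate count in iNSC minus NSC (1) was 0 with only genes at a highest group mean of at least 6, and 2 with median centring and with array weights; without 1 array it ran from 1 to 2. The transporter count in iNSC1 minus iNSC2 (1) was 0 with that level filter, which Slc43a1 did not pass. The unfolded protein response count was 3 in iNSC minus MEF after a further quantile normalisation, against 5, and 2 to 5 in NSC minus MEF without 1 array; the tRNA synthetase count in iNSC minus NSC was 0 to 1. With no minimum fold, the counts in iNSC minus MEF, NSC minus MEF, iNSC minus NSC and iNSC1 minus iNSC2 were 15, 13, 8 and 1 for sensors and regulators, 11, 15, 11 and 1 for further stress targets, 9, 10, 8 and 0 for serine, glycine and folate enzymes, 8, 10, 7 and 2 for other amino acid enzymes, 11, 10, 11 and 1 for transporters, 12, 15, 10 and 0 for tRNA synthetases, 17, 16, 9 and 1 for the unfolded protein response and 13, 12, 8 and 1 for hypoxia genes. With no minimum fold, 55.9%, 51.9%, 35.8% and 2.3% of all genes passed in these 4 comparisons. The lists held 17, 18, 14, 14, 12, 19, 21 and 13 measured genes, in the order given. The cause of the other changes was not tested. In the authors' deposited table, Phgdh had an adjusted p of 0.076 in iNSC minus NSC, against 0.0256 here. The authors' table was not run for iNSC1 minus iNSC2, because its ratios there are whole numbers.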

Other observations

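Of 13 measured hypoxia genes, 4 were called higher and 1 lower in iNSC minus MEF, 4 higher and 2 lower in NSC minus MEF, and 1 higher and 1 lower in iNSC minus NSC. Of all genes, 8.21% were called higher and 10.9% lower in iNSC minus MEF. The shares were 8.72% and 9.96% in NSC minus MEF, and 2.91% and 3.65% in iNSC minus NSC. Egln3, an oxygen-sensing hydroxylase, was higher than in MEF by 3.82 ± 0.083 in iNSC and 3.14 ± 0.096 in NSC. Ankrd37, a hypoxia-induced gene, was higher by 2.31 ± 0.094 and 2.52 ± 0.11, and Pdk1, which restrains pyruvate oxidation in mitochondria, by 1.10 ± 0.16 and 1.83 ± 0.18. Adm, which encodes the peptide adrenomedullin, was lower than in MEF by -4.86 ± 0.10 in iNSC and -4.65 ± 0.12 in NSC.

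The following pathway genes were named after their values were seen. Atf3, a stress-induced transcription factor, averaged 6.58 and 7.03 on the iNSC1 and iNSC2 arrays and 5.00 on the NSC arrays, against 5.41 on the MEF arrays, and was called higher in iNSC than in NSC (1.81 ± 0.093, adjusted p = 4.09e-11). Stc2, a secreted stress glycoprotein, and Slc7a1, a cationic amino acid carrier, were also called higher in iNSC than in NSC, by 1.11 ± 0.083 and 1.09 ± 0.072. Nfe2l2, the regulator of the oxidative stress response, was called lower in iNSC than in NSC (-1.96 ± 0.084, adjusted p = 3.33e-12). Eif2ak4, the kinase GCN2 that senses uncharged tRNA, and Gdf15, a stress-induced hormone, were called lower in iNSC than in NSC by -1.27 ± 0.12 and -1.33 ± 0.13.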
